A study of Sus scrofa with 3 samples.

Results

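Of the 152 conserved miRNA entries listed for porcine skeletal muscle, 10 lie together on the minus strand of chromosome 6 of the Sscrofa10.2 assembly, at 5 positions between 866649 and 870961. They were picked by their position and by their names, which are those of miR-5105, miR-716a, miR-6087, miR-2904, and miR-2887, each with a 5p and a 3p entry. Their reads, lengths, and overlapping arms were known when they were chosen, so these are given as a description with no test. The nearest other entry on this chromosome starts at 58064307 on the plus strand, so no entry lies close outside the chosen positions.

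Small RNA of 3 muscles was sequenced, with the peroneal longus (PL) as red, the psoas major muscle (PMM) as intermediate, and the longissimus dorsi muscle (LDM) as white fiber type, all from female Landrace pigs aged 210 days. Each muscle has 1 library, so there is no replicate and the spread between animals is unknown. RNA of 3 pigs was pooled for PL, while pooling is not described for PMM and LDM, whose reads came from earlier work on the same pigs, so that sequencing occasion and the contrast of PL with the others cannot be told apart. Levels are given in RPM, the reads of an entry per 1 M raw reads (9.17 M for PL, 18.46 M for PMM, and 16.62 M for LDM), with exact 95% Poisson intervals that cover counting error only. The entries here are those placed through precursors of other mammals, as the paper lists known pig miRNAs apart. A miRNA not found here can thus still be present in the muscle, and the paper reports miR-133a, miR-208b, and miR-499. Of the muscle miRNAs looked up, miR-1 and miR-208a were present among these entries, 2 of 7, and ran in opposite directions. For the listed miR-1-3p sequence, PL had 44 reads, PMM 892, and LDM 1318. In contrast, miR-208a-3p, which lies in a cardiac myosin gene, had 118, 13, and 1 in that order. This miR-1-3p sequence differs from its listed precursor by 1 base (A17G). The paper counts miR-1 among its abundant known pig miRNAs, so these reads are not the whole level of miR-1.

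A miRNA is cut by Drosha and then Dicer from the stem of a hairpin precursor. The 5p and 3p strands come from opposite sides of the loop and pair with each other as a short duplex, so they do not overlap on the precursor, and their lengths fall in a narrow range. Short pieces of ribosomal or transfer RNA can enter the same libraries, and entries made of such pieces have at times been listed in miRBase and withdrawn later. No ribosomal or transfer RNA sequence was used here, so a match of the 10 entries to one was not tested.

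The 10 listed sequences are shown because their overlaps and base composition set them beside the other entries. They are given 5′ to 3′ in the order of the minus strand, and capitals mark the seed, bases 2 to 8, which guides target pairing in a miRNA.
miR-5105-5p: gCCCAAGTccttctgatcgaggccc
miR-5105-3p: aGTCCTTCtgatcgaggccc
miR-716a-5p: cGACGAGTaggagggc
miR-716a-3p: aAACGAGAactttgaaggcc
miR-6087-5p: gGGGGCGAgccccgaggggctctcg
miR-6087-3p: cCCCGAGGggctctcgcttctggcgcc
miR-2904-5p: aGCGCCGCgggagcctcggttggcc
miR-2904-3p: gGTTGGCCtcggatagccggtccccc
miR-2887-5p: gACCGGGGtccggtgcggagagccct
miR-2887-3p: cCGGTGCGgagagcccttcgtcctggga
The 10 seeds all differ from each other, and none of them occurs as the seed of another entry in the table, so they form no seed family. Entries of different positions shared at most 6 bases in a row, and the longest run shared with any other entry was 8 bases.

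The positions are spread over 4313 bases, of which the precursors cover 404 (9.37%). In 5′ to 3′ order of the minus strand they are chr6:870882-870961 (miR-5105), chr6:868791-868939 (miR-716a), chr6:867408-867456 (miR-6087), chr6:866740-866808 (miR-2904), and chr6:866649-866705 (miR-2887). The gaps between them are 1942, 1334, 599, and 34 bases, so that only miR-2904 and miR-2887 are close neighbors. The genes at these positions were not looked up, because a genome or annotation of this assembly was not used. Each position was placed through a single precursor of another mammal. These are mmu-mir-5105 of mouse, sha-mir-716a of Tasmanian devil, hsa-mir-6087 of human, and bta-mir-2904-3 and bta-mir-2887-2 of cow.

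Summed over the 10 entries and scaled to raw reads, the levels of the 3 libraries were close. As shares of the conserved reads they were not, at 2.27% in PL, 5.80% in PMM, and 6.23% in LDM. Most conserved reads are miR-26b-5p, and without it the shares were 23.98%, 15.5%, and 16.8%. PL held 536 reads of the entries (58.5 RPM, 53.6 to 63.6), PMM held 945 (51.2 RPM, 48.0 to 54.6), and LDM held 777 (46.8 RPM, 43.5 to 50.2). The intervals of neighboring libraries overlapped, and those of PL and LDM did not. Overlapping entries may count the same reads, which the files do not resolve, so these sums can be too high. With only 1 entry per position, the one of more reads over the 3 libraries together, the order turned. PL was lowest at 40.2 RPM (36.2 to 44.6), PMM highest at 44.9 RPM (41.9 to 48.0), and LDM between them at 42.1 RPM (39.0 to 45.3). The intervals overlapped throughout. This pick drops miR-2904-3p, which had more reads in PL (44) than miR-2904-5p (14), so the place of PL depends on the pick. Within these sums the entries differed widely, and PMM and LDM were led by another entry than PL.

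miR-2887-5p led in PL, with 178 reads against 14 in PMM and 11 in LDM. PL stood at 19.4 RPM (16.7 to 22.5), PMM at 0.758 RPM (0.415 to 1.27), and LDM at 0.662 RPM (0.3304 to 1.18). PL was thus 25.6-fold higher than PMM (exact 95% interval 14.9 to 47.8) and 29.3-fold higher than LDM (16 to 59.8), while PMM and LDM lay within each other's intervals. Its 3p partner did not share this pattern. miR-2887-3p had 4, 12, and 6 reads in PL, PMM, and LDM, and the ratio of PL to PMM was 0.671, with an interval from 0.158 to 2.21 that includes equal levels.

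miR-716a-3p was instead lowest in PL, and was the most abundant of the entries in PMM and LDM. PL gave 38 reads (4.14 RPM, 2.93 to 5.69), PMM 639 (34.6 RPM, 32.0 to 37.4), and LDM 445 (26.8 RPM, 24.3 to 29.4). PMM was 8.35-fold higher than PL (6.02 to 11.9), and LDM was 6.46-fold higher than PL (4.63 to 9.25). PMM was also 1.29-fold higher than LDM (1.14 to 1.46), which is under the 1.5-fold threshold applied here. This difference rests on the library total, since the log2 ratio of PMM to LDM was 0.37 with raw reads, fell to 0.037 when size factors (median of ratios) were used, and was -0.12 with the trimmed mean of M values (TMM). miR-716a-5p was rare, with 5, 5, and 2 reads in PL, PMM, and LDM, and each ratio between libraries had an interval that includes 1.

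miR-2904-5p was highest in LDM with 173 reads (10.4 RPM, 8.92 to 12.1), followed by PMM with 48 (2.60 RPM, 1.92 to 3.45) and PL with 14 (1.53 RPM, 0.835 to 2.56). LDM exceeded PMM 4.003-fold (2.89 to 5.63), the widest contrast between these 2 libraries among the 10 entries, and PL 6.82-fold (3.96 to 12.7). Its partner miR-2904-3p was instead highest in PL, where 44 reads were found (4.80 RPM), while PMM had 21 (1.14 RPM) and LDM 25 (1.504 RPM). PL was 4.22-fold above PMM (2.45 to 7.47) and 3.19-fold above LDM (1.91 to 5.44), although the latter turned to a log2 ratio of -0.10 when the conserved reads were summed as the total.

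Per raw reads, both miR-5105 entries were highest in PL and lowest in LDM. miR-5105-5p had 112, 124, and 66 reads, or 12.2 RPM (10.06 to 14.7), 6.72 RPM (5.59 to 8.01), and 3.97 RPM (3.07 to 5.05). miR-5105-3p had 113, 78, and 43 reads, or 12.3 RPM (10.16 to 14.8), 4.23 RPM (3.34 to 5.27), and 2.59 RPM (1.87 to 3.49). PL exceeded PMM 1.82-fold (1.40 to 2.37) for the 5p and 2.92-fold (2.17 to 3.94) for the 3p entry. With the summed conserved reads as total, most of which are miR-26b-5p, PL was no longer highest for the 5p entry, with log2 ratios of -0.68 to PMM and -0.16 to LDM, and the 3p entry was level between PL and PMM (0.00066). Since the 3p sequence is contained in the 5p sequence, these are not independent measurements.

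The 2 miR-6087 entries had the fewest reads of any position. For miR-6087-3p, PL had 27 reads, PMM 3, and LDM 4, which gives a ratio of PL to PMM of 18.1 with a wide interval from 5.58 to 93.3. For miR-6087-5p, PL and PMM each had 1 read and LDM had 2. These lie under the limit of 3 reads (0.327 RPM for PL, 0.163 RPM for PMM, and 0.181 RPM for LDM), so no ratio is given for miR-6087-5p.

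**Figure D1:**
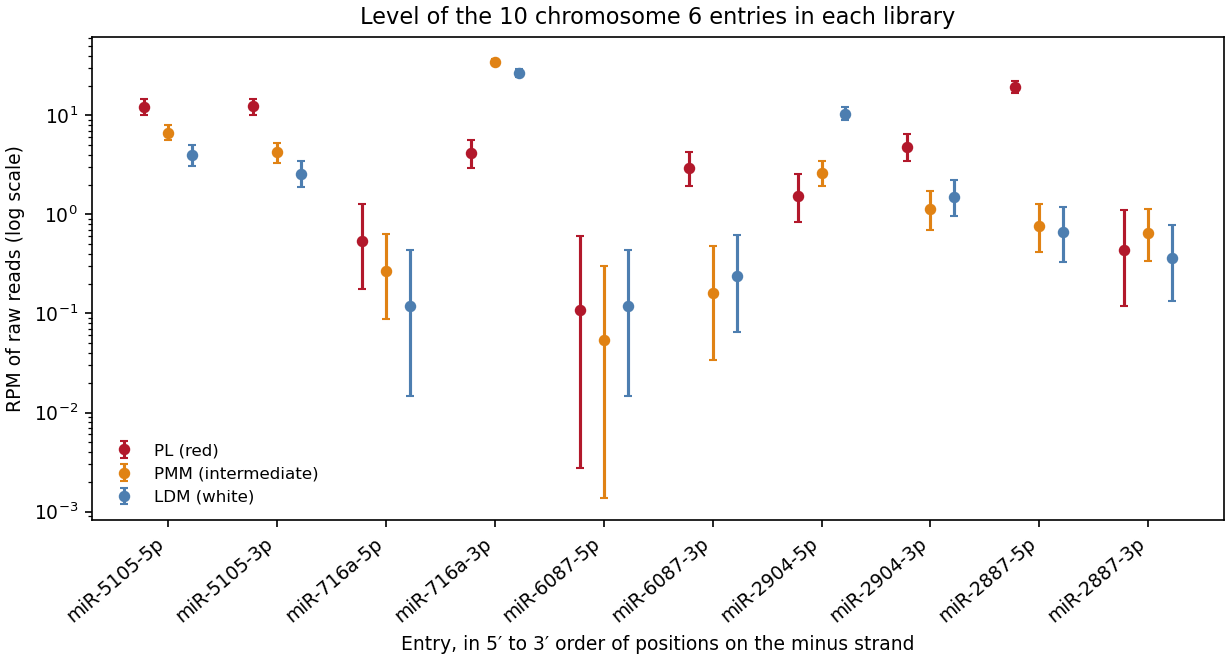
Level of each chromosome 6 entry in RPM of raw reads on a log axis, with PL in red, PMM in orange, and LDM in blue, and bars for exact 95% Poisson intervals of 1 library each. miR-2887-5p stands at 19.4 RPM in PL and under 1 RPM in the others, while miR-716a-3p stands at 34.6 RPM in PMM, 26.8 RPM in LDM, and 4.14 RPM in PL.

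At the 1.5-fold threshold, 6 of the 10 entries were higher in PL than in PMM and 2 were lower. The threshold was applied to the ratio without its interval. For PL over PMM, the interval includes 1 for miR-716a-5p among the 6 (0.463 to 8.75) and for miR-2904-5p among the 2 (0.299 to 1.08). Of all 108 unique conserved miRNAs with at least 3 reads over the libraries, 24.1% were over 1.5-fold higher in PL than in PMM and 32.4% in the other direction. The same 6 entries (miR-2887-5p, miR-2904-3p, miR-5105-3p, miR-5105-5p, miR-6087-3p, and miR-716a-5p) were higher in PL than in LDM, with a background of 29.6%, and the same 2 (miR-716a-3p and miR-2904-5p) were higher in LDM than in PL, with a background of 22.2%. Between PMM and LDM, 4 entries were higher in PMM (background 42.6%) and 1, miR-2904-5p, was higher in LDM (background 10.2%). This split turned with the other scalings, to 1 entry higher in PMM and 3 in LDM both with size factors (29 and 18 of the 108 miRNAs) and with TMM (25 and 23). The 4 entries were miR-2887-3p, miR-716a-5p, and both of miR-5105. For PMM over LDM in raw reads, the intervals of miR-2887-3p (0.625 to 5.85) and miR-716a-5p (0.368 to 23.6) include 1. All 10 entries had the minimum of reads. As the entries were chosen with these reads known, nothing is read from these counts. PL is part of both contrasts with the other libraries, which are therefore not separate evidence.

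On the log2 scale the median ratio of PL to PMM was 1.01 over 9 entries, miR-6087-5p being left out, against -0.063 over the 69 tested miRNAs with reads in both libraries and over 3 in at least 1. The entries ranged from -3.06 for miR-716a-3p to 4.68 for miR-2887-5p, and all tested miRNAs from -3.36 to 5.40. For PL over LDM the medians were 1.67 for the entries and 0.49 for 59 miRNAs, and for PMM over LDM they were 0.37 and 0.67 (76 miRNAs). Between PMM and LDM the entries ranged from -2.00 for miR-2904-5p to 1.17 for miR-716a-5p. This range spans 3.17, against 7.74 for PL over PMM and 7.64 for PL over LDM. All tested miRNAs likewise had the narrowest range between PMM and LDM, with 6.0 against 8.76 and 11.8.

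Shares within the 10 entries do not depend on the library total, and they also differed between the libraries. In PL, miR-5105 held 42.0% of the reads (95% Clopper-Pearson interval 37.8% to 46.3%) and miR-2887 held 34.0% (29.95% to 38.1%), with both entries of a position added. This order turned with 1 entry per position, the one of more reads over all libraries together. In PL, miR-2887-5p then led with 48.2% (43.0% to 53.5%) over miR-5105-5p with 30.4% (25.7% to 35.3%). As before, miR-716a-3p led in PMM (77.2%) and LDM (63.7%). Over all entries in PMM, miR-716a held 68.1% (65.1% to 71.1%) and miR-2887 2.75% (1.80% to 4.01%). In LDM, miR-716a held 57.5% (54.0% to 61.03%), followed by miR-2904 with 25.5% (22.5% to 28.7%), which compares with 7.30% in PMM (5.73% to 9.15%) and 10.8% in PL (8.32% to 13.8%). miR-6087 made up 5.22% of the PL reads, and 0.423% and 0.772% of those in PMM and LDM.

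**Figure D2:**
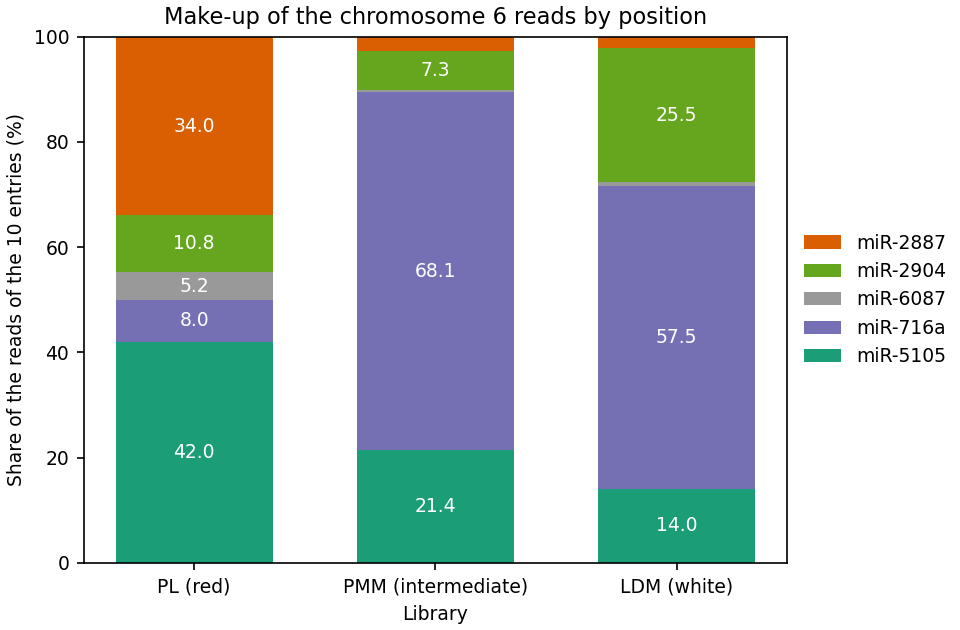
Share of the reads of the 10 entries held by each of the 5 positions, in percent, with 1 stacked bar per library and both entries of a position added, although the miR-5105-3p sequence is contained in the 5p one. miR-5105 and miR-2887 make up most of the PL bar (42.0% and 34.0%), which turns to 30.4% and 48.2% with 1 entry per position, miR-716a makes up most of the PMM and LDM bars (68.1% and 57.5%), and miR-2904 is larger in LDM (25.5%) than in PMM (7.30%).

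The 5p entries of the close neighbors miR-2904 and miR-2887, 34 bases apart, showed the change of make-up on a small scale. In PL there were 0.0787 reads of miR-2904-5p for each read of miR-2887-5p (0.0421 to 0.135). PMM had a ratio of 3.43 (1.86 to 6.73) and LDM one of 15.7 (8.57 to 32.1), so the intervals of all 3 libraries are apart. The 3p entries of these positions did not follow this order. miR-2904-3p had 44, 21, and 25 reads in PL, PMM, and LDM, and miR-2887-3p had 4, 12, and 6, so PL was not lowest there. The ratio of miR-716a-3p to miR-5105-5p was 0.339 in PL (0.228 to 0.494), while it was 5.15 (4.25 to 6.30) for PMM and 6.74 (5.20 to 8.87) for LDM, whose intervals overlapped. In contrast, miR-2887-5p against miR-5105-5p separated PL (1.59, 1.25 to 2.03) from PMM (0.113, 0.0600 to 0.197) and LDM (0.167, 0.0794 to 0.318).

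The balance of the 5p and 3p entry at a position also differed between libraries. At miR-2904 the 5p entry held 24.1% of the PL reads (13.9% to 37.2%), 69.6% of the PMM reads (57.3% to 80.1%), and 87.4% of the LDM reads (81.9% to 91.7%), with no overlap of the intervals. At miR-2887 PL had 97.8% on the 5p entry (94.5% to 99.4%), PMM 53.8% (33.4% to 73.4%), and LDM 64.7% (38.3% to 85.8%). The libraries were closer at miR-5105, where PL had 49.8% (43.1% to 56.5%), PMM 61.4% (54.3% to 68.1%), and LDM 60.6% (50.7% to 69.8%). miR-716a was read almost wholly from the 3p entry in PMM and LDM, with 5p shares of 0.776% and 0.447%, against 11.6% in PL (3.89% to 25.1%). The reads of miR-6087 were too few in PMM (4) and LDM (6) to set against PL.

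**Figure D3:**
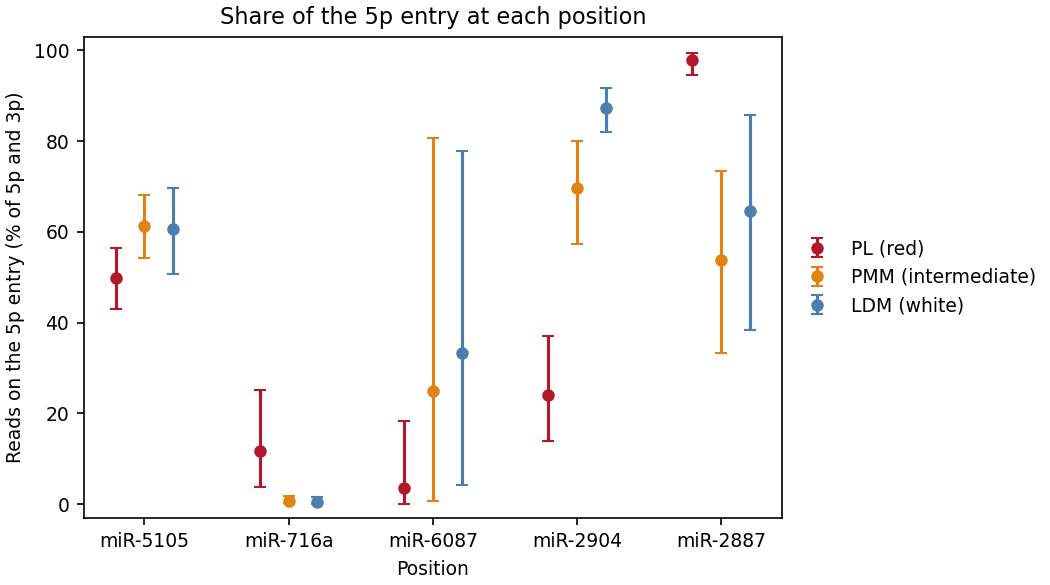
Reads on the 5p entry as a percentage of the 5p and 3p reads of each position, with PL in red, PMM in orange, and LDM in blue, and bars for 95% Clopper-Pearson intervals. At miR-2904 the share goes from 24.1% in PL to 69.6% in PMM and 87.4% in LDM, and at miR-2887 PL stands at 97.8%, above the other libraries.

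At 4 of the 5 positions the 5p and 3p entries lie over each other on the precursor. The precursors of these 4 are shown as listed, from the species named above, with capitals for the stretch that both entries cover.
mmu-mir-5105: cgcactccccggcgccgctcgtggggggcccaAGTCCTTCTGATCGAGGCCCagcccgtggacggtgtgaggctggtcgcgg
hsa-mir-6087: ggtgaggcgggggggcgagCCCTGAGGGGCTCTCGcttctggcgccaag
bta-mir-2904-3: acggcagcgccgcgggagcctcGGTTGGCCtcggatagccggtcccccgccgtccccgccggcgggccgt
bta-mir-2887-2: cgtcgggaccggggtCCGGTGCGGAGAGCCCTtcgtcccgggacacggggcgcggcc
The stretch is 20 bases at miR-5105, 16 at miR-6087, 8 at miR-2904, and 17 at miR-2887. At miR-5105 both entries end on the same base and differ by 5 bases at the 5′ end, whereas at the other 3 positions the 3p entry starts 9 or 17 bases downstream and also ends later. miR-716a is the exception, with 84 bases between its entries. Of 38 other positions whose 2 arms could be placed on 1 precursor, the arms overlapped at 1, miR-2404 (7 bases, with 1 read on each arm in PL), and the median distance between the arms was 16 bases.

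The entries also sat elsewhere on their precursors than the others of the table. At the 4 positions with overlap this is not a separate trait, since the overlap was known when the entries were chosen. Overlapping entries cannot lie on opposite sides of the center, nor pair along their whole length as a duplex. Of the 10, 7 ran across the center of the listed precursor, where a hairpin has its loop, against 4 of the 142 other entries (2.82%). The exceptions were miR-2904-5p and both entries of miR-716a. Both miR-5105 entries are among the 7, although the 3p sequence is contained in the 5p one. In the minimum free energy fold of the listed precursor, the 5p entry formed between 0 and 7 base pairs with the 3p entry, with a median of 3 over the 5 positions. For the 38 other positions the median was 16 pairs, and 34 of them had at least 10. In 8 of the 10 entries, bases of the entry paired with other bases of the same entry, as in 3 of 142 others.

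**Figure D4:**
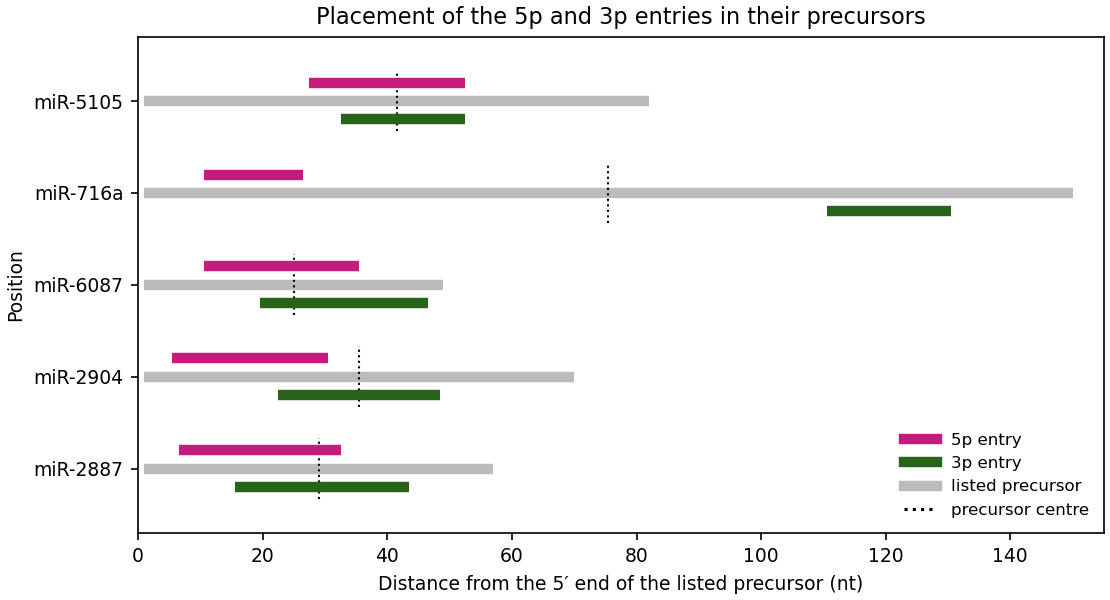
Placement of the 5p entry (magenta) and the 3p entry (green) on the listed precursor of each position (gray), in nt from its 5′ end, with a dotted line at the center. The entries overlap at miR-5105, miR-6087, miR-2904, and miR-2887, and those of miR-716a are 84 bases apart.

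The precursors of the 5 positions differed among themselves in how they fold. Their free energy per nt lay between -0.359 kcal/mol for sha-mir-716a and -0.537 kcal/mol for hsa-mir-6087, with a median of -0.507, against -0.414 for the 130 other precursor entries, which ranged from -0.784 to -0.134. The longest run of stacked pairs was 5 to 8, with a median of 7, against 10 for the others. A single hairpin loop was found in 3 of the 5, and in 120 of the 130 others (92.3%). sha-mir-716a, of 150 nt, had 5 hairpin loops, and bta-mir-2887-2 had 2. The median share of G and C was 75.5% in these precursors and 49.4% in the others, and its part in the energies was not tested.

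Listed length set the entries apart as well, which was known when they were chosen. Their lengths ran from 16 nt for miR-716a-5p to 28 nt for miR-2887-3p, with a median of 25 nt. Only miR-5105-3p and miR-716a-3p, both of 20 nt, fell within 20 to 24 nt, whereas 129 of the 142 others did (90.8%). None of the 10 was 22 nt long, the most common length of the others (61 of 142), and 7 were of 25 nt or more, against 6 of the 142.

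**Figure D5:**
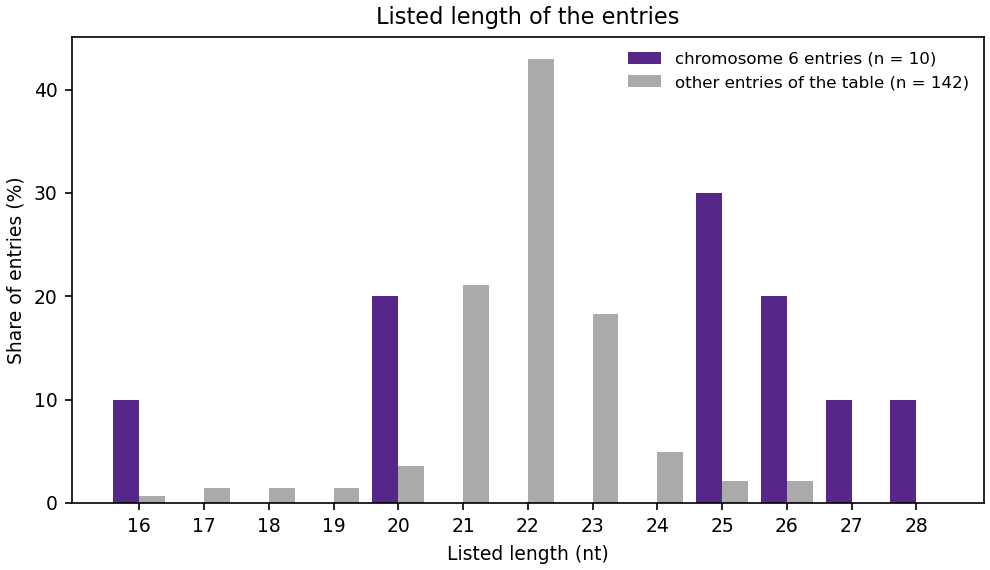
Listed length in nt on the horizontal axis and the share of entries of that length in percent, for the 10 chromosome 6 entries (purple) and the 142 others (gray). The others peak at 22 nt, where none of the 10 falls, and 7 of the 10 stand at 25 nt or more.

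The entries were rich in G and C. The GC content had a median of 72.3% and reached 84.0% in miR-6087-5p, against a median of 45.5% in the other entries. All but miR-716a-3p (45.0%) were at 60% or above, as were 20 of the 142 others. These 20 other entries resembled the rest of the table in length and placement, since 16 of them were 20 to 24 nt long, 1 covered the center of its precursor, and 0 paired within itself. Their summed level was 7.52 RPM in PL and lower in PMM (2.60 RPM) and LDM (3.01 RPM), but miR-431-5p (28 reads) and miR-188-3p (21 reads) made up most of their 69 reads in PL. The 114 unique miRNAs under 60% GC, without miR-26b-5p, summed to 178 RPM in PL, and to 275 RPM and 229 RPM in PMM and LDM. The part of base composition in the differences above was not tested.

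The listed sequence was found without a mismatch in its listed precursor for 5 of the 10 entries, namely both of miR-5105, both of miR-2904, and miR-2887-5p. The other 5 differed from it by 1 base. With the base of the precursor first, then the position counted from 1 at the 5′ end of the entry, then its own base, these were T4C in miR-716a-5p, T20C in miR-716a-3p, T13C in miR-6087-5p, T4C in miR-6087-3p, and C24T in miR-2887-3p. The precursor bases changed in both miR-6087 entries are the same base of hsa-mir-6087. Since the precursors are those of other mammals, a species difference and a read from another locus cannot be told apart here. Among the other entries, 101 of 142 were found without a mismatch and 37 with 1.

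The 10 entries were set beside a list of 15 miRNA names whose entries resemble structural RNAs such as transfer, small nucleolar, or ribosomal RNA. Only 3 of the names were found among the conserved entries (miR-1248, miR-1260b, and miR-1291), and their reads summed to 4 for PL, 5 for PMM, and 3 for LDM. Entries that resemble such RNAs but are not named in the list were not counted, so these sums may not hold all such reads. Known pig miRNAs are listed apart, so a name not found here may still be present. The same holds for the markers that follow. Among markers of other cell types, miR-223 of blood cells, 1 of 5 listed, was at 1.64 RPM, 2.28 RPM, and 2.23 RPM in PL, PMM, and LDM. The epithelial miR-141, miR-200b, and miR-200c, 3 of 5 listed, summed to 0.981 RPM, 4.23 RPM, and 1.93 RPM. The epithelial sum, like miR-716a-3p, was lowest in PL, and its part in that difference was not tested.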

How the data were processed

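Before deposit, reads without a 3′ adapter, reads outside 16 to 29 bases, and junk reads had been removed. BLAST had been used to map the remaining reads to miRBase 19.0 precursors (pig and 24 mammals besides) and then to the genome, named Sscrofa10.2 by the paper and the submitters' processing notes and Sscrofa10 by the heading of the table. The authors deposited raw read counts per entry and library, with no normalization. Cells that hold a mark in place of a number (118 of 456, none of them among the 10 entries) were read as 0. By the heading, the values are those of the most abundant sequences, and whether further isomiRs are included is not stated in the sources used here.

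The entries were named by the most common number among their listed precursors. The members and the lists of miRNAs were chosen with earlier results of these data known, and all 10 members are named. Scaling used the raw reads stated in the paper. Identical sequences were merged, keeping the highest value per library, and the 108 with at least 3 reads in sum were counted as past the threshold at 1.5-fold, with over 3 reads in the higher library and 3 reads in place of 0 in the lower. Ratios of RPM have exact binomial intervals, and shares have Clopper-Pearson intervals. With 1 library per muscle no p-value was computed. Entries were placed on their listed precursor without gaps at the fewest substitutions, and precursors were folded with RNAfold 2.7.2 at its default settings. Alternatives were other library totals, minimums, thresholds, and folding without lonely pairs. Intervals, calls past the threshold, and placement were tested on simulated data. Scripts ran under Python 3.11.15 (matplotlib 3.10.9, numpy 2.4.6, pandas 2.3.3, scipy 1.17.1).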

Additional observations from a re-analysis of the deposited data

How the results depend on the processing

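No paired analysis was possible because the muscles have 1 library apiece, and none could be left out. Against raw reads, the log2 level of PL relative to PMM shifts by -1.54 with the summed conserved reads as total, most of which are miR-26b-5p, by 0.43 without miR-26b, by 0.59 without the 10 entries and miR-26b, by -0.0020 with median-of-ratios size factors, and by -0.19 with the trimmed mean of M values (TMM). With the summed reads, the log2 ratio turned to -0.68 for miR-5105-5p (PL over PMM), -0.16 for miR-5105-5p (PL over LDM), -0.53 for miR-716a-5p (PL over PMM), and -0.10 for miR-2904-3p (PL over LDM). No ratio past 1.5-fold changed sign under the other 4 totals. With the summed reads, the entries past 1.5-fold were 2 in place of 6 for PL over PMM and for PL over LDM, 4 in place of 2 for PMM over PL, 2 in place of 4 for PMM over LDM, and 3 in place of 1 for LDM over PMM. Of all miRNAs these were 11 in place of 26 (PL over PMM) and 58 in place of 35 (PMM over PL). For PL and LDM they were 15 in place of 32 (PL over LDM) and 48 in place of 24 (LDM over PL). For PMM and LDM they were 39 in place of 46 (PMM over LDM) and 17 in place of 11 (LDM over PMM). Without miR-26b, and without the entries and miR-26b, there were 1 entry for PMM over PL, 2 for PMM over LDM, and 3 for LDM over PMM. Of all miRNAs there were 30 and 29, in that order, for PMM over PL. With both totals there were 39 miRNAs for PMM over LDM and 17 for LDM over PMM. With size factors and with TMM, the entries were 1 for PMM over LDM and 3 for LDM over PMM. Of all miRNAs these were 29 and 18 with size factors, and 25 and 23 with TMM. At 2-fold, the entries were 1 for PMM over PL and 1 for PMM over LDM. Of all miRNAs there were 30 for PMM over PL, 27 for PMM over LDM, and 6 for LDM over PMM. Other minimums of reads and the use of every entry of the table kept the counts of the 10 entries and of all miRNAs past 1.5-fold within 1.5 times.

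The 10 entries held 2.27% (PL), 5.80% (PMM), and 6.23% (LDM) of the conserved reads. With miR-26b left out this was 23.98%, 15.5%, and 16.8%, which turns the order of the libraries, since miR-26b-5p had 21348 reads in PL. With 1 entry per position, the one of more reads over all libraries together, it was 1.56%, 5.08%, and 5.61%. Within 21 to 23 nt there were 0.0% of the 10 entries and 82.4% of the others. Arms sharing 4 or more bases in any place were found at 27 of 40 other positions, 8 or more at 2, and 12 or more at 0, against 5, 4, and 3 of the 5 positions. Folding without lonely pairs moved neither median free energy by more than the spread between precursors. Low reads limit miR-6087-5p, miR-716a-5p, and miR-2887-3p, whose ratios between libraries are not resolved.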

Other observations

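The 2 other positions whose arms share 8 or more bases, miR-431 (10 bases) and miR-384 (8 bases), were looked up after their values were seen. Their arms do not overlap on the precursor, with 23 and 16 bases between them, so the shared run is a repeat of letters and not a common stretch. With overlap taken from the placement, it was found at 4 of the 5 chromosome 6 positions and at 1 of 38 others.

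The 4 other entries that cover the center of their precursor, also looked up after their values were seen, were miR-377-5p, miR-2404-3p, miR-3960-3p, and miR-761-5p. They had at most 4 reads in any library. The 7 chromosome 6 entries with this placement varied, from miR-6087-5p with at most 2 reads (LDM) to miR-2887-5p with 178 reads in PL.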
